A study of Homo sapiens with 18 samples.

Results

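Interferon-stimulated genes are the genes that cells turn on when they sense viral nucleic acid or receive interferon. The 50 genes described here were chosen by symbol as interferon-stimulated genes with their sensors, the kinase JAK1, STAT2 and the IRF factors, among 26443 genes with values. Earlier results of these data were known when they were chosen. Of these 50 genes, 41 reached 1 RPKM (RPKM scales reads by gene length and sequencing depth) in at least 3 of 18 libraries and were tested, beside 12900 tested genes in all. The libraries were made from LNCaP cells, an established human line derived from a prostate tumour, and fell into 6 groups of 3.

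All cells received a lentiviral infection lasting 5 days and 100 µM CoCl2, a chemical mimic of hypoxia, for the last 24 h, so the controls carry both. The control group had the pGIPZ vector with a control shRNA, the shHIF1A group an shRNA against HIF1A, the shFOXA1 group an shRNA against FOXA1, and the doubly infected group both. HIF1A is the part of the hypoxia-inducible factor that oxygen controls, and FOXA1 is a pioneer transcription factor that opens closed chromatin in prostate cells. A further pair of groups, the control vector and shFOXA1, received 40 µM KC7F2, a HIF1A inhibitor, for 24 h. The number of different shRNAs per target is not given in the sources used here, so loss of HIF1A and other effects of the HIF1A shRNA cannot be told apart. Whether cells with a single shRNA received a second vector, the vehicle of KC7F2, and whether the triplicates were separate cultures are not stated either, so p-values reflect only how these libraries vary, which may be technical variation.

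In the textbook pathway, RIG-I and MDA5 bind foreign RNA and switch on interferon genes through IRF factors. Secreted type I interferon then acts through receptors and the kinases JAK1 and TYK2, and STAT2 joins IRF9 in a complex that binds the interferon-stimulated response element (ISRE) upstream of its targets. The targets block viral RNA, viral entry and viral assembly, and some of them, among them the STAT and IRF genes, feed back on the pathway.

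The depth behind the RPKM values, inferred from the values themselves, was 3257743 to 12086042 reads per library. In the doubly infected group it was 3257743 to 8428478 reads. Reads recovered in genes summed to 2525109 to 9467724 per library, and 11589 to 11828 genes reached 1 RPKM in each. HIF1A mRNA measured 14, 27.3 and 28.0 RPKM in control 1 to 3 against 3.06, 4.28 and 3.33 RPKM in shHIF1A. FOXA1 mRNA measured 71.6, 114 and 107 RPKM in control against 35.1, 32.4 and 34.8 RPKM in shFOXA1, but 70.7, 63.5 and 59.3 RPKM in the doubly infected libraries. FOXA1 mRNA was thus less depleted with both shRNAs than with the FOXA1 shRNA alone. HIF1A mRNA itself measured 88.6, 81.6 and 99.5 RPKM in shFOXA1, above every control, and 4.33, 4.07 and 4.56 RPKM with both shRNAs. All 8 luminal prostate markers checked, among them KLK3, KLK2, KRT8 and KRT18, were above 1 RPKM in at least 1 library, and each of 6 leukocyte markers stayed under 1 RPKM in every library. In bulk samples, fewer cells of a kind and less RNA per cell cannot be told apart.

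RefSeq promoter windows (GRCh38.p14, 250 bases before to 50 after a transcription start) were matched for 39 of the 50 genes, DDX58 under its current symbol RIGI. DHX58, IRF7, OAS2, OASL, IFIT2, IFITM2, MX2, GBP2, TRIM22, UBA7 and USP18 had no window. A core of the ISRE, GAAANNGAAA on either strand, was present in the windows of 26 of 39 genes (66.7%), against 4.38% of 27305 genes with a window. The core of the GAS element, TTCNNNGAA, which reads the same on both strands and can overlap an ISRE core, was present in 11 of 39 (28.2%) against 9.38%. A match describes the letters in these windows, and binding was not measured. The stretches of 80 bases below, written 5′ to 3′ on the gene's strand with ISRE cores in capitals, are shown because they carry the letters that these genes share. The first 6 belong to genes that rose after HIF1A knockdown, and the last 3 to genes that did not pass the test in any comparison.
IFIT1, chr10:89392478-89392557, plus strand: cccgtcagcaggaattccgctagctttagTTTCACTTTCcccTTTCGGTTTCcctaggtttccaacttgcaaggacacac
IFIT3, chr10:89332421-89332500, plus strand: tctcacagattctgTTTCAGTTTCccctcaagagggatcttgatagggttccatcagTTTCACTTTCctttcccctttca
ISG15, chr1:1013352-1013431, plus strand: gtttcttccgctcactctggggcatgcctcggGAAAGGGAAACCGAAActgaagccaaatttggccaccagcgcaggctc
IFI6, chr1:27672269-27672348, minus strand: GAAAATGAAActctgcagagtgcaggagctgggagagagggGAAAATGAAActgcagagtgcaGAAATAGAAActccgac
IFI27, chr14:94110599-94110678, plus strand: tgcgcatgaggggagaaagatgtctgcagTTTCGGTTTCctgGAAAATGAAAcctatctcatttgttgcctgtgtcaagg
SAMD9, chr7:93118071-93118150, minus strand: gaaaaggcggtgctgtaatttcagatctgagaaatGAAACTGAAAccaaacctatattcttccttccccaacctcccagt
IFIH1, chr2:162318796-162318875, minus strand: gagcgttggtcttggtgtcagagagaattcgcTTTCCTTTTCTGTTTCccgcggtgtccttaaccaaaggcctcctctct
HERC5, chr4:88456978-88457057, plus strand: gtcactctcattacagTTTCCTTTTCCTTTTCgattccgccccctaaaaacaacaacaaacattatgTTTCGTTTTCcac
IFI44, chr1:78649709-78649788, plus strand: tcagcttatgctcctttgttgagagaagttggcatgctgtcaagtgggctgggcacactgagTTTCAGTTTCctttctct

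These stretches lie upstream of a RefSeq start, and those of IFIT3 and IFI27 lie within the span of the gene, downstream of an earlier start. IFI6 and HERC5 hold 3 cores in the stretch, and in HERC5, IFIH1 and ISG15 neighbouring cores overlap. SAMD9 and IFI44 hold 1 core each.

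**Figure D1:**
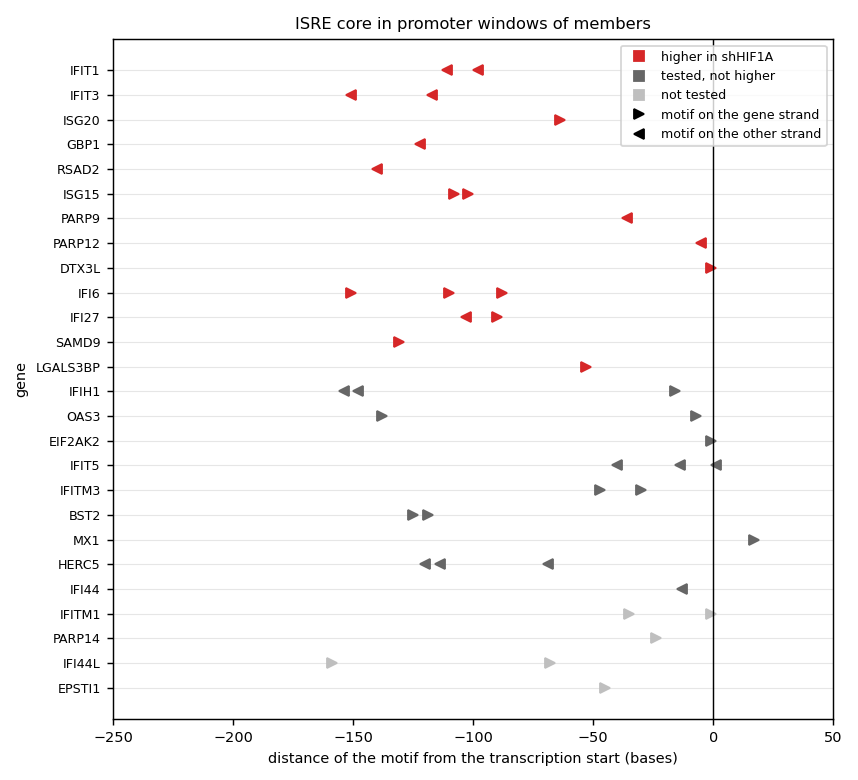
Position of each ISRE core (triangles, pointing right on the gene's strand and left on the other strand) relative to the transcription start in the first RefSeq window that holds one, for the 26 genes with a core. Red marks genes higher in shHIF1A than in control, dark grey tested genes that were not, and light grey genes that were not tested, and cores are seen in all 3 classes.

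HIF1A knockdown against control asked what changes when HIF1A is lost under the hypoxia mimic. Of the 41 tested genes, 24 rose and 0 fell at an adjusted p below 0.05 (limma, Benjamini-Hochberg over all genes tested). Over all tested genes 42% were called, 25.9% as higher and 16.1% as lower, so the share that rose among the interferon-stimulated genes, 58.5%, stood above that of all genes. The genes were chosen with earlier results of these data known, and the 24 include IFIT1, which was tested only through its levels in shHIF1A. The excess is therefore no independent support. With median-ratio scaling the calls over all genes split into 2745 higher and 2634 lower, against 3347 and 2075 as deposited, while the members gave 22 higher and 1 lower. The median change of the 41 genes was 0.51 against 0.07 over all genes, on the log2(RPKM + 0.5) scale used for every change here, which understates the change of low genes. Changes are log2 fold changes ± SE. The groups did not overlap for 26 of the 41 genes, against 47.6% of all genes.

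The largest rises were in the effectors that bind or degrade viral RNA, where 7 of 10 tested genes rose. IFIT2, which binds viral RNA, measured 1.79, 1.83 and 1.78 RPKM in control and 9.19, 11.3 and 10.4 RPKM in shHIF1A, a rise of 2.23 ± 0.19 (adjusted p = 2.22e-07). IFIT1, which recognises RNA without a methylated cap, measured 0.782, 0.365 and 0.390 RPKM in control and 5.02, 4.68 and 3.83 RPKM in shHIF1A, and rose by 2.32 ± 0.23 (adjusted p = 9.54e-07). Its partner IFIT3 measured 0.620, 0.578 and 0.410 RPKM against 4.24, 5.33 and 4.87 RPKM, and rose by 2.36 ± 0.24 (adjusted p = 9.8e-07). Every shHIF1A library was above every control library for these 3 neighbours on chromosome 10, and the control values of IFIT1 rested on 42, 20 and 19 reads. IFIT1 reached 1 RPKM only in the 3 shHIF1A and 2 of the doubly infected libraries, so it was tested only because it was high in shHIF1A, and its call is no independent support. The same holds for the presence of DHX58 and BST2 among the 41 genes. OASL, an OAS-like protein that enhances RIG-I signalling, measured 1.60, 1.61 and 0.790 RPKM in control and 8.48, 11.6 and 7.77 RPKM in shHIF1A. Its rise of 2.43 ± 0.28 was the largest among the 41 genes (adjusted p = 5.25e-06). OAS1, which makes the signal that activates RNase L, rose by 1.17 ± 0.25, from 0.955 ± 0.294 to 2.84 ± 1.05 RPKM (SD, n = 3, adjusted p = 0.00159). The RNA-editing enzyme ADAR, the most abundant of these effectors, measured 39.8, 52.9 and 57.1 RPKM in control and 66.5, 79.2 and 67.3 RPKM in shHIF1A, a rise of 0.51 ± 0.14 (adjusted p = 0.00599). The exonuclease ISG20 rose by 0.62 ± 0.17 (adjusted p = 0.00739).

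The other 3 tested RNA effectors did not pass the test. EIF2AK2, the kinase PKR that stops translation, measured 7.31 ± 1.74 RPKM in control and 8.26 ± 0.929 RPKM in shHIF1A (change 0.19, 95% interval -0.17 to 0.55). OAS3 changed by -0.10 (interval -0.60 to 0.40) and IFIT5 by 0.21 (interval -0.34 to 0.75). The IFIT and OAS families thus held members that rose by over 1 beside members without a call.

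Of 3 RNA sensors, DDX58, which encodes RIG-I, rose by 0.99 ± 0.17, from 1.48, 1.47 and 1.63 RPKM to 3.40, 3.55 and 3.59 RPKM (adjusted p = 0.000268). IFIH1, which encodes MDA5, measured 2.35, 2.40 and 2.37 RPKM in control and 2.03, 2.07 and 2.75 RPKM in shHIF1A, and these values overlap. Its change of -0.06 had an interval of -0.40 to 0.29, and that of the regulator DHX58 (LGP2) was 0.47 (interval -0.15 to 1.09).

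Among 5 signalling genes, IRF9 and STAT2, which join in the complex that binds the ISRE, rose together. IRF9 measured 5.35, 3.96 and 3.75 RPKM in control and 13.4, 11.2 and 10.4 RPKM in shHIF1A, a rise of 1.33 ± 0.18 (adjusted p = 2.47e-05). STAT2 measured 10.1, 11.1 and 10.3 RPKM against 14.2, 16.3 and 15.5 RPKM, a rise of 0.52 ± 0.08 (adjusted p = 5.19e-05). Both were higher in all 3 shHIF1A libraries than in any control library. IRF1 changed by 0.26 ± 0.11 (adjusted p = 0.0564), IRF7 by 0.12 ± 0.15 and JAK1 by 0.09 ± 0.20, and none of the 3 passed.

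Of 8 tested membrane proteins and GTPases, 4 rose. RSAD2, the antiviral enzyme viperin, measured 0.451, 0.565 and 0.331 RPKM in control and 3.33, 2.62 and 2.91 RPKM in shHIF1A, a rise of 1.87 ± 0.22 (adjusted p = 4.75e-06). The guanylate-binding GTPases GBP1 and GBP2 rose by 0.91 ± 0.21 and 0.61 ± 0.15, and the ubiquitin ligase TRIM22 rose by 0.94 ± 0.22 (adjusted p at most 0.00392). MX1, a GTPase that traps viral nucleocapsids and is often used as an interferon marker, did not follow. It measured 0.577, 0.849 and 0.636 RPKM in control and 0.295, 0.311 and 0.461 RPKM in shHIF1A, and the groups do not overlap. Its change of -0.47 ± 0.20 missed the threshold as deposited (adjusted p = 0.0653), but passed it as a fall with median-ratio scaling (adjusted p = 0.048), quantile normalisation (0.0292) and voom on the recovered reads (0.0214). The entry blocker IFITM3, at 43.0 ± 1.23 RPKM in control, changed by 0.23 (interval -0.12 to 0.58), and IFITM2 by 0.00 (interval -0.59 to 0.59). IFITM2 and IFITM3 are close copies, and how reads were shared between them is not given. BST2, the tether that holds virus at the cell surface, changed by 0.49 ± 0.37 without passing.

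In the ISG15 system, ISG15, the ubiquitin-like modifier itself and the most abundant of the 50 genes, measured 92.8, 59.0 and 39.4 RPKM in control and 157, 119 and 109 RPKM in shHIF1A. It rose by 1.07 ± 0.26 (adjusted p = 0.00318), although control 1 stood well above the other controls. Its activating enzyme UBA7 averaged 1.36 ± 0.157 RPKM in control and 3.10 ± 0.410 RPKM in shHIF1A, a rise of 0.95 ± 0.19 (adjusted p = 0.000964). The ligase HERC5 changed by -0.17 ± 0.24, HERC6 by 0.12 ± 0.20 and the ISG15 protease USP18 by 0.02 ± 0.12, and none of them passed. The modifier and its first enzyme thus rose without a call for the ligase or the protease.

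All 3 tested genes of the PARP and DTX3L group, ADP-ribosyltransferases and the ligase that partners PARP9, passed the test as deposited, DTX3L close to the threshold. PARP9 rose by 0.57 ± 0.10 (adjusted p = 0.000308), PARP12 by 0.44 ± 0.12 (adjusted p = 0.00734) and DTX3L by 0.40 ± 0.14 (adjusted p = 0.035, but 0.126 with median-ratio scaling). PARP9 and DTX3L lie head to head on chromosome 3, and without stated strandedness reads at their shared start cannot be assigned.

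Among 7 other tested genes 5 rose. IFI6, a mitochondrial and endoplasmic reticulum protein that limits apoptosis and viral replication, measured 13.3, 12.8 and 8.91 RPKM in control and 65.8, 49.4 and 46.7 RPKM in shHIF1A, a rise of 2.16 ± 0.21 (adjusted p = 8.23e-07). IFI27 measured 0.159, 0.313 and 0.644 RPKM in control, from 3, 6 and 11 reads, and 3.56, 3.01 and 2.51 RPKM in shHIF1A, a rise of 2.04 ± 0.31 (adjusted p = 7.74e-05). In both genes every shHIF1A library was far above the highest control library. SAMD9, which restricts poxviruses, rose by 0.95 ± 0.19 (adjusted p = 0.000636), the nuclear body protein SP110 by 0.49 ± 0.18 (adjusted p = 0.0366) and the secreted LGALS3BP by 0.51 ± 0.15 (adjusted p = 0.0108). IFI35 changed by 0.33 ± 0.19 and IFI44 by -0.14 ± 0.30, without a call.

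The remaining 9 genes, OAS2, IFITM1, MX2, CMPK2, PARP14, IFI44L, SAMD9L, XAF1 and EPSTI1, did not reach 1 RPKM in 3 libraries and were not tested. Of these, XAF1, a pro-apoptotic interferon target, had 12, 7 and 12 reads in shHIF1A, 0 in each control library and 2 in all others, which is at least 10.6-fold higher against a floor of 3 reads over the control group. OAS2 had 24, 37 and 14 reads in shHIF1A against 0, 1 and 4 in control and 16 in all other libraries. CMPK2, the neighbour of RSAD2, had 116 reads in shHIF1A against 58 in control, and PARP14 125 against 88. For IFITM1, MX2, SAMD9L, EPSTI1 and IFI44L the 3 shHIF1A libraries together held 17, 11, 8, 22 and 5 reads against 6, 1, 1, 18 and 0 in control.

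Among the 24 rises, the calls of DTX3L and SP110 were lost under the most settings. Both were lost with median-ratio scaling (adjusted p = 0.126 and 0.0821), with quantile normalisation (0.0955 and 0.0824) and with no filter on low values (0.0594 and 0.0678), and SP110 also with only these 2 groups fitted (0.0553). DTX3L was lost without control 1, control 2, shHIF1A 2 or shHIF1A 3 (adjusted p 0.063 to 0.12), SP110 without any control or without shHIF1A 1 or 2 (0.0613 to 0.139), and LGALS3BP without shHIF1A 1 (0.0641). Other markers moved with the same contrast. The summed level of 4 fibroblast markers was 7.86 to 9.13 RPKM in shHIF1A against 2.55 to 3.47 RPKM in control, nearly all of it from COL1A1 and COL3A1, while COL1A2 and DCN were at 0 in control and at most 0.0448 RPKM in shHIF1A. That of 3 endothelial markers was 2.11 to 2.72 against 0.548 to 0.794 RPKM, nearly all from VWF, with PECAM1 and CDH5 at most 0.0418 RPKM in both groups. That of the 8 luminal markers was 864 to 1052 against 1466 to 1933 RPKM. The part of these shifts in the result was not tested.

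**Figure D2:**
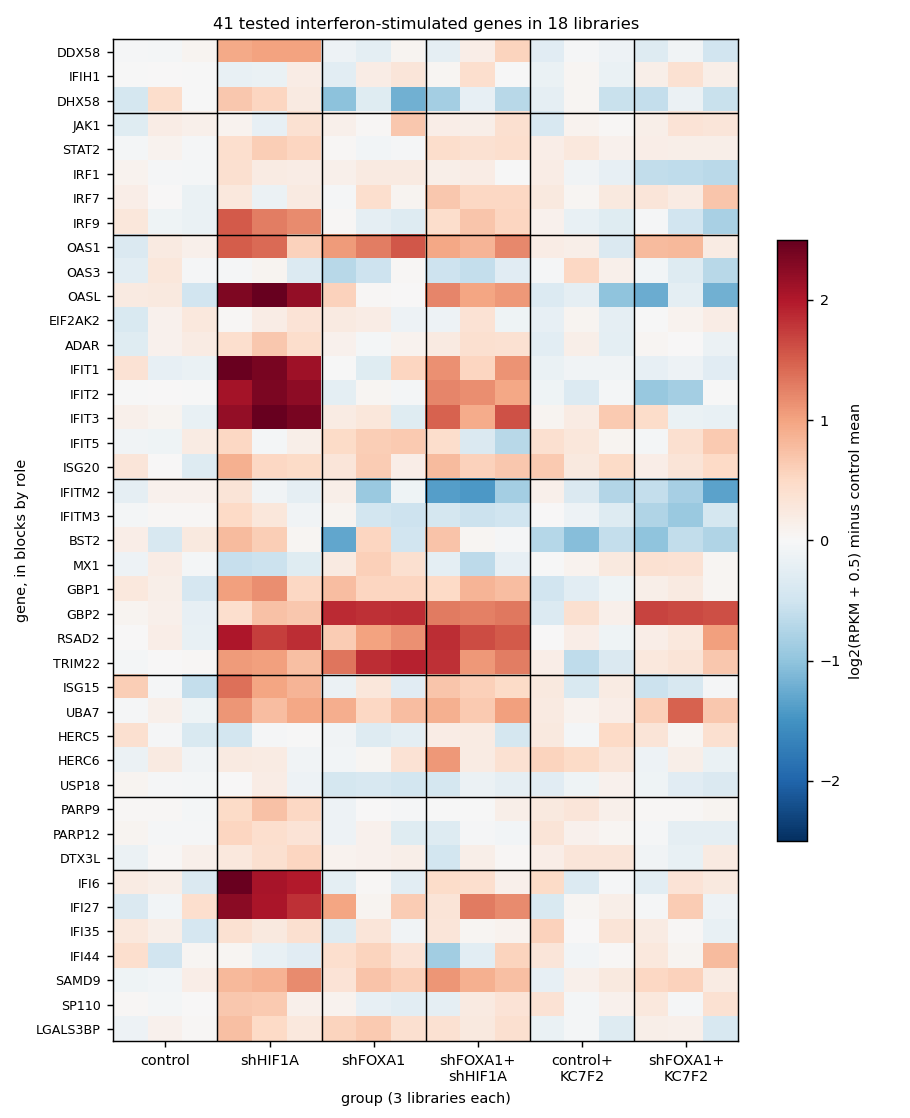
Level of each of the 41 tested genes (rows, in blocks by role) in each library (columns, 3 per group), as log2(RPKM + 0.5) minus the mean of the 3 control libraries. Red marks values above the control mean and blue values below it, and the deepest red lies in the shHIF1A columns for OASL, IFIT1, IFIT2, IFIT3, IFI6 and IFI27.

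The ISRE core did not separate the genes that rose from those that did not. It was present in 13 of the 19 risers with a window (68.4%) and in 9 of the 13 tested genes with a window that did not rise (69.2%). Among genes that were not tested it was present in 4 of 7. IFIH1 and HERC5, whose stretches are printed above, hold overlapping cores and measured 2.28 ± 0.405 and 0.850 ± 0.226 RPKM in shHIF1A against 2.37 ± 0.0256 and 1.04 ± 0.410 RPKM in control. MX1 also holds cores. The GAS core was present in 4 of 19 risers and 4 of 13 others.

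FOXA1 knockdown against control changed a smaller set. Of the 41 genes, 8 rose and 2 fell, 24.4% in all, against 24.1% of all tested genes, 9.52% as higher and 14.6% as lower, so the total share of calls was near the background. By direction, rises outnumbered falls among the 41 genes, while falls outnumbered rises over all genes. With median-ratio scaling all genes split into 1498 higher and 1546 lower calls, and the members into 9 and 1. The median change of the 41 genes was 0.08 against -0.09 over all genes, and the groups did not overlap for 12 of 41 genes against 35.1% of all.

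GBP2 led, with 2.28, 2.38 and 1.81 RPKM in control and 9.18, 8.88 and 8.98 RPKM in shFOXA1, a rise of 1.85 ± 0.15 (adjusted p = 1.28e-07). TRIM22 measured 0.854, 0.922 and 0.941 RPKM in control and 3.07, 4.56 and 4.82 RPKM in shFOXA1, a rise of 1.70 ± 0.22 (adjusted p = 3.03e-05). OAS1 averaged 0.955 ± 0.294 RPKM in control and 3.05 ± 0.610 RPKM in shFOXA1, a rise of 1.29 ± 0.25 (adjusted p = 0.0013). For these 3 genes no shFOXA1 library fell within the range of the controls. RSAD2 rose by 0.93 ± 0.22 (adjusted p = 0.00472), UBA7 by 0.73 ± 0.19 (adjusted p = 0.0111), LGALS3BP by 0.54 ± 0.15, GBP1 by 0.61 ± 0.21 and SAMD9 by 0.55 ± 0.19 (adjusted p at most 0.0404). USP18, the protease that removes ISG15 and dampens interferon signalling, fell by 0.43 ± 0.12, from 4.49 ± 0.243 to 3.21 ± 0.0837 RPKM (adjusted p = 0.0174). DHX58 fell by 0.84 ± 0.29, from 0.858 ± 0.410 to 0.262 ± 0.264 RPKM (adjusted p = 0.0463).

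Several genes that rose most after HIF1A knockdown stayed near control here. IFIT2 measured 1.45, 1.87 and 1.71 RPKM in shFOXA1 (change -0.08, interval -0.49 to 0.33), and IFI6 measured 9.67, 11.8 and 9.44 RPKM (change -0.16, interval -0.61 to 0.29). IFIT1 changed by 0.08 (interval -0.41 to 0.57), IFIT3 by 0.06 (interval -0.44 to 0.56) and OASL by 0.21 (interval -0.40 to 0.81). ISG15 changed by -0.04 and IRF9 by -0.17, without a call.

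Without shFOXA1 3 the count fell from 10 to 6, and with only these 2 groups fitted it was 5. The calls lost without a single library were those of DHX58 (adjusted p 0.0714 to 0.187 without control 2, control 3, shFOXA1 1 or shFOXA1 3), GBP1 (0.0517 to 0.147 without any of the 6 libraries but control 1), SAMD9 (0.102 to 0.13 without control 1, control 2, shFOXA1 2 or shFOXA1 3), USP18 (0.0626 without control 1, 0.0548 without shFOXA1 3) and LGALS3BP (0.0553 without control 1, 0.0554 without shFOXA1 2). Without control 3 the rise of GBP1 was 0.40. DHX58 was also lost with median-ratio scaling (adjusted p = 0.0514), a pseudocount of 1 (0.0524) and no filter (0.0562), USP18 with voom (0.0744) and with only these groups fitted (0.0508), and GBP1 with no filter (0.0599) and with only these groups fitted (0.12).

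**Figure D3:**
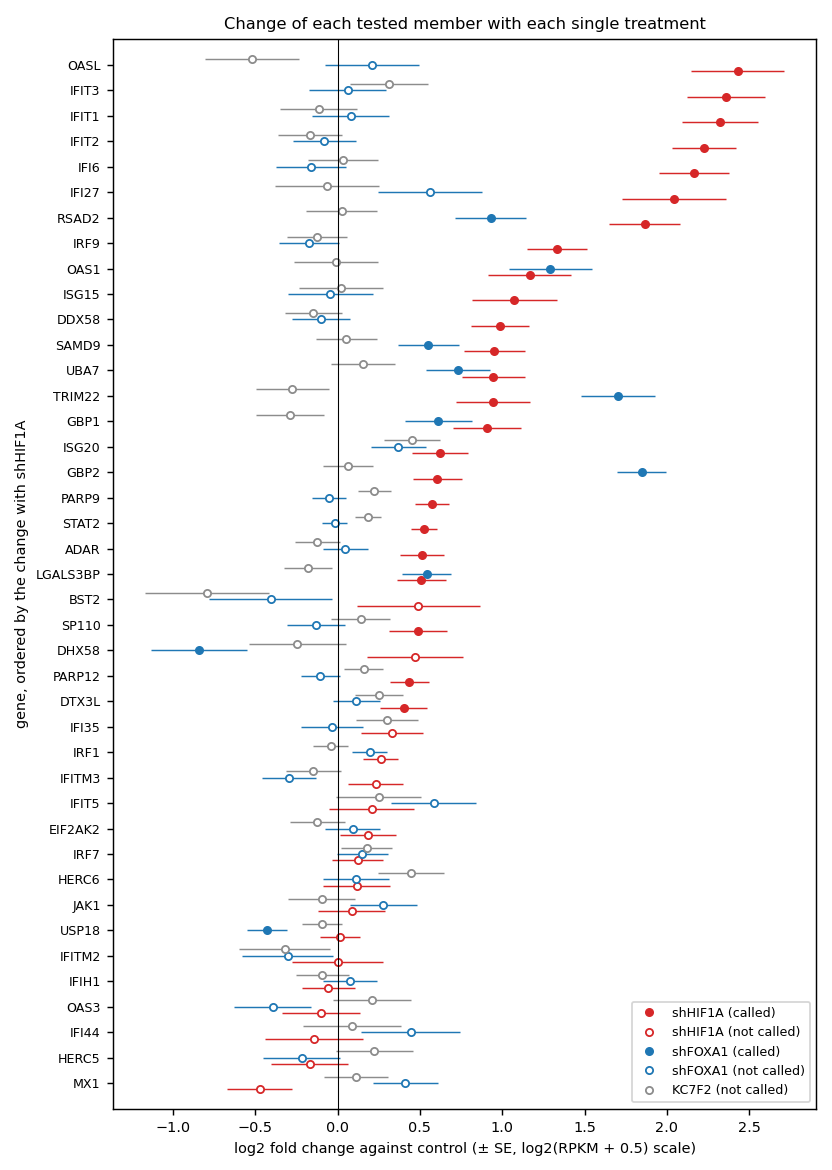
Log2 fold change against control (horizontal axis, ± SE) of the 41 tested genes for shHIF1A (red), shFOXA1 (blue) and KC7F2 in control cells (grey), with filled points for genes that passed the test. The red points of OASL, IFIT3, IFIT1, IFIT2, IFI6 and IFI27 lie beyond 2, the blue points of GBP2 and TRIM22 lie beyond 1.5, and no grey point is filled.

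KC7F2, the HIF1A inhibitor, gave no call among the 41 genes in control cells, where 2.04% of all tested genes were called, 1.05% as higher and 0.992% as lower. With median-ratio scaling all genes split into 101 higher and 195 lower calls, against 135 and 128 as deposited, and the members again gave 0. By limma 4 genes had an unadjusted p below 0.05, and voom on the recovered reads also called 0. The median change was 0.02 against 0.07 over all genes, and the groups did not overlap for 6 of 41 genes, against 14.6% of all. IFIT2 measured 1.63, 1.31 and 1.71 RPKM with KC7F2 and changed by -0.17, with an interval of -0.58 to 0.24. IFI6 measured 16.2, 8.99 and 11.3 RPKM and changed by 0.03 (interval -0.42 to 0.49), and ISG15 measured 71.6, 45.8 and 68.9 RPKM and changed by 0.02 (interval -0.52 to 0.57). Every IFIT2 value with KC7F2 lay below every control value (1.79, 1.83 and 1.78 RPKM), without a call. The values of IFI6 and ISG15 overlapped with those of control. The intervals of IFIT1 (-0.61 to 0.38), IFIT3 (-0.19 to 0.81) and OASL (-1.12 to 0.08) also end below the rises of over 2 seen with the HIF1A shRNA. The smallest adjusted p was that of ISG20, with a change of 0.45 ± 0.17 (adjusted p = 0.251). HIF1A mRNA measured 15.1, 23.2 and 13.5 RPKM with KC7F2, and HIF1A protein was not measured here.

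The HIF1A shRNA and KC7F2 were compared directly in a contrast chosen after the data had been seen. In the cells without FOXA1 shRNA, 22 of 41 genes were higher and 1 was lower with the shRNA than with KC7F2, against 42.6% of all genes called, 23% as higher and 19.6% as lower. No overlap between the groups was seen for 26 of 41 genes, against 53.4% of all. IFIT2 was higher by 2.39 ± 0.19 (adjusted p = 9.34e-08), OASL by 2.95 ± 0.28 (adjusted p = 6.52e-07), IFIT1 by 2.44 ± 0.23 and IFI6 by 2.13 ± 0.21, while MX1 was lower, with a change of -0.58 ± 0.20 (adjusted p = 0.0249), a call lost without shHIF1A 1 or 2 or KC7F2 2 or 3 (adjusted p 0.0505 to 0.0907). IFIT1 would not have been tested without its levels in shHIF1A, so its difference here is no independent support. The shRNA acted over 5 days and KC7F2 over 24 h, so agent and time cannot be told apart. Without control 1 and KC7F2 1 and 3, which an earlier analysis of these data found to carry more signal in short genes, 15 of the 41 genes were called.

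With FOXA1 knockdown in both groups, 15 of 41 genes were higher and 1 was lower with the HIF1A shRNA than with KC7F2, against 36.6% of all genes called, 23.4% as higher and 13.2% as lower. The groups did not overlap for 20 of 41 genes, against 49.1% of all. IFIT2 was higher by 1.72 ± 0.19 (adjusted p = 3.86e-06), OASL by 2.00 ± 0.28 (adjusted p = 4.3e-05), IRF1 by 0.75 ± 0.11 (adjusted p = 3.82e-05) and IRF9 by 1.00 ± 0.18 (adjusted p = 0.000445). MX1 was the one that was lower, with a change of -0.63 ± 0.20 (adjusted p = 0.0192), a call lost without doubly infected 2 or without shFOXA1 plus KC7F2 1 or 2 (adjusted p 0.0654 to 0.0858). MX1 would not have been tested without its levels in shFOXA1 plus KC7F2, so this call is no independent support. With median-ratio scaling 9 genes were higher and 2 lower, and all genes split into 2316 higher and 2301 lower against 3020 and 1700 as deposited.

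Cells with both shRNAs were compared with control. FOXA1 mRNA was less depleted in them than in shFOXA1, so the comparison describes both shRNAs and not a full loss of both factors. Of the 41 genes, 17 rose and 2 fell, against 42.1% of all genes called, 22.6% as higher and 19.5% as lower, with a median change of 0.34 against 0.03. No overlap between the groups was seen for 22 of 41 genes, against 44.9% of all. GBP2 measured 6.02, 5.83 and 6.09 RPKM in the doubly infected libraries and rose by 1.29 ± 0.15 (adjusted p = 3.95e-06). RSAD2 measured 2.88, 2.42 and 2.23 RPKM and rose by 1.67 ± 0.22 (adjusted p = 1.33e-05), and TRIM22 rose by 1.40 ± 0.22 to 3.29 ± 1.04 RPKM (adjusted p = 0.000105). IFIT2 measured 4.83, 4.64 and 3.97 RPKM and rose by 1.11 ± 0.19 (adjusted p = 0.000222), and IFIT3 rose by 1.33 ± 0.24 (adjusted p = 0.00027). These doubly infected libraries all lay above the highest control library. STAT2 (0.42 ± 0.08), SAMD9 (0.92 ± 0.19), UBA7 (0.86 ± 0.19), IFIT1 (0.94 ± 0.23), OAS1 (1.01 ± 0.25), ISG20 (0.67 ± 0.17), OASL (1.10 ± 0.28) and IRF7 (0.57 ± 0.15) also rose, as did GBP1, IRF9, IFI27 and HERC6. IFI6, at 16.1, 15.6 and 12.7 RPKM against 13.3, 12.8 and 8.91 RPKM in control, overlapped with control and had no call.

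IFITM2 and IFITM3 were the 2 genes that fell in the doubly infected cells, a smaller share than the 19.5% of all genes called lower. IFITM2 measured 8.08, 10.3 and 10.2 RPKM in control and 3.36, 3.17 and 5.04 RPKM with both shRNAs, and fell by 1.22 ± 0.28 (adjusted p = 0.0021). Its values with both shRNAs rested on 8, 15 and 31 reads. IFITM3 measured 41.6, 43.7 and 43.8 RPKM against 31.7, 29.3 and 30.2 RPKM, and fell by 0.49 ± 0.17 (adjusted p = 0.0244). All 3 doubly infected libraries were below every control for both genes. The calls of IRF9 (adjusted p 0.0718 to 0.0796 without control 2, control 3 or doubly infected 2), IFITM3 (0.0514 to 0.0675 without control 2, control 3, doubly infected 2 or doubly infected 3), GBP1 (0.0629 without control 3), IFI27 (0.0632 to 0.107 without control 1, control 2, doubly infected 2 or doubly infected 3) and HERC6 (0.0845 to 0.198 without control 1, control 3 or doubly infected 1) rested on single libraries. The rise of HERC6 was 0.30 without doubly infected 1, and its call was also lost with no filter (adjusted p = 0.064) and with only these groups fitted (0.119), as was that of GBP1 in the latter fit (0.0547).

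Adding the HIF1A shRNA to FOXA1 knockdown raised 8 of the 41 genes and lowered 4. FOXA1 mRNA also differed between these groups, being less depleted with both shRNAs, and its part in these calls was not tested. Over all genes 37.5% were called, 24% as higher and 13.5% as lower, against 29.3% called among the 41 genes. The groups did not overlap for 16 of 41 genes, against 49.5% of all. With median-ratio scaling the calls over all genes split into 2234 higher and 2391 lower, against 3096 and 1745 as deposited, and the median of all genes shifted by -0.11. The members then gave 7 higher and 4 lower. IFIT2 rose by 1.19 ± 0.19 (adjusted p = 0.000141), STAT2 by 0.44 ± 0.08 (adjusted p = 0.000327), IFIT3 by 1.27 ± 0.24 (adjusted p = 0.000497) and IRF9 by 0.73 ± 0.18 (adjusted p = 0.00502). IFIT1, RSAD2, OASL and IRF7 rose by 0.86, 0.74, 0.89 and 0.41, with an adjusted p of 0.0455 for IRF7. MX1, which would not have been tested without its levels in shFOXA1, fell by 0.78 ± 0.20, from 0.887, 1.30 and 1.06 RPKM in shFOXA1 to 0.503, 0.253 and 0.519 RPKM (adjusted p = 0.00534). GBP2 fell by 0.55 ± 0.15 (adjusted p = 0.00819), IFITM2 by 0.92 ± 0.28 (adjusted p = 0.0158) and IFIT5 by 0.79 ± 0.26 (adjusted p = 0.0245).

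The call of IRF7 in this comparison was the least stable. It was lost with median-ratio scaling (adjusted p = 0.125), quantile normalisation (0.108), no filter on low values (0.0765), voom (0.0712), the replicate number as a block (0.0543) and only these groups fitted (0.0514), and without any of the 6 libraries but shFOXA1 2 (0.0701 to 0.169). IFIT5 was lost without shFOXA1 2, shFOXA1 3, doubly infected 2 or doubly infected 3 (adjusted p 0.0616 to 0.124) and with only these groups fitted (0.0711). OASL was lost without shFOXA1 2, shFOXA1 3 or doubly infected 1 (0.0686 to 0.0763) and with a pseudocount of 0.1 (0.0546), IFITM2 with voom (0.0727) and without shFOXA1 1, shFOXA1 3, doubly infected 1 or doubly infected 2 (0.0561 to 0.0855), and RSAD2 without shFOXA1 1 (0.0701) or doubly infected 1 (0.056).

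Adding the FOXA1 shRNA to HIF1A knockdown lowered 14 of the 41 genes and raised 1. FOXA1 mRNA was less depleted with both shRNAs than in shFOXA1, and the part of this in these calls was not tested. The share that fell, 34.1%, stood above the background of 9.25% as lower, with 5.27% as higher and 14.5% in all. This comparison uses the same shHIF1A libraries as those of shHIF1A with control and with KC7F2 and as the interaction of both shRNAs. These results are therefore not independent of each other. No overlap between the groups was seen for 20 of 41 genes, against 31.8% of all. With median-ratio scaling all genes split into 791 higher and 1013 lower calls, against 680 and 1193 as deposited, and the members into 2 and 13. With quantile normalisation all genes split into 898 and 1023. IFI6 fell by 1.82 ± 0.21, from 65.8, 49.4 and 46.7 RPKM to 16.1, 15.6 and 12.7 RPKM (adjusted p = 2.41e-05). IFIT1 fell by 1.39 ± 0.23, from 4.51 ± 0.615 to 1.44 ± 0.426 RPKM (adjusted p = 0.000658), and IFIT2 by 1.11 ± 0.19, from 10.3 ± 1.05 to 4.48 ± 0.450 RPKM (adjusted p = 0.000879). In each of these genes the groups were apart. PARP9 fell by 0.53 ± 0.10, PARP12 by 0.57 ± 0.12, DDX58 by 0.82 ± 0.17, OASL by 1.33 ± 0.28 and IFITM2 by 1.22 ± 0.28 (adjusted p at most 0.00674). IFITM3, IFIT3, IRF9, DHX58, IFI27 and DTX3L also fell. GBP2 was the 1 riser, by 0.69 ± 0.15 (adjusted p = 0.0052). DHX58 lost its call without shHIF1A 1, shHIF1A 2, doubly infected 1 or doubly infected 3 (adjusted p 0.0708 to 0.0976), IFI27 without shHIF1A 1, shHIF1A 2 or doubly infected 1 (0.0768 to 0.111), and DTX3L without shHIF1A 2, shHIF1A 3 or doubly infected 1 (0.0856 to 0.126). Without doubly infected 1 the log2 change of DTX3L was -0.31, and its call was also lost with median-ratio scaling (adjusted p = 0.0696) and with only these groups fitted (0.088), and that of IFI27 with a pseudocount of 0.1 (0.0813). IFIT1 and DHX58 were tested only through their levels in shHIF1A, so their falls are no independent support.

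**Figure D4:**
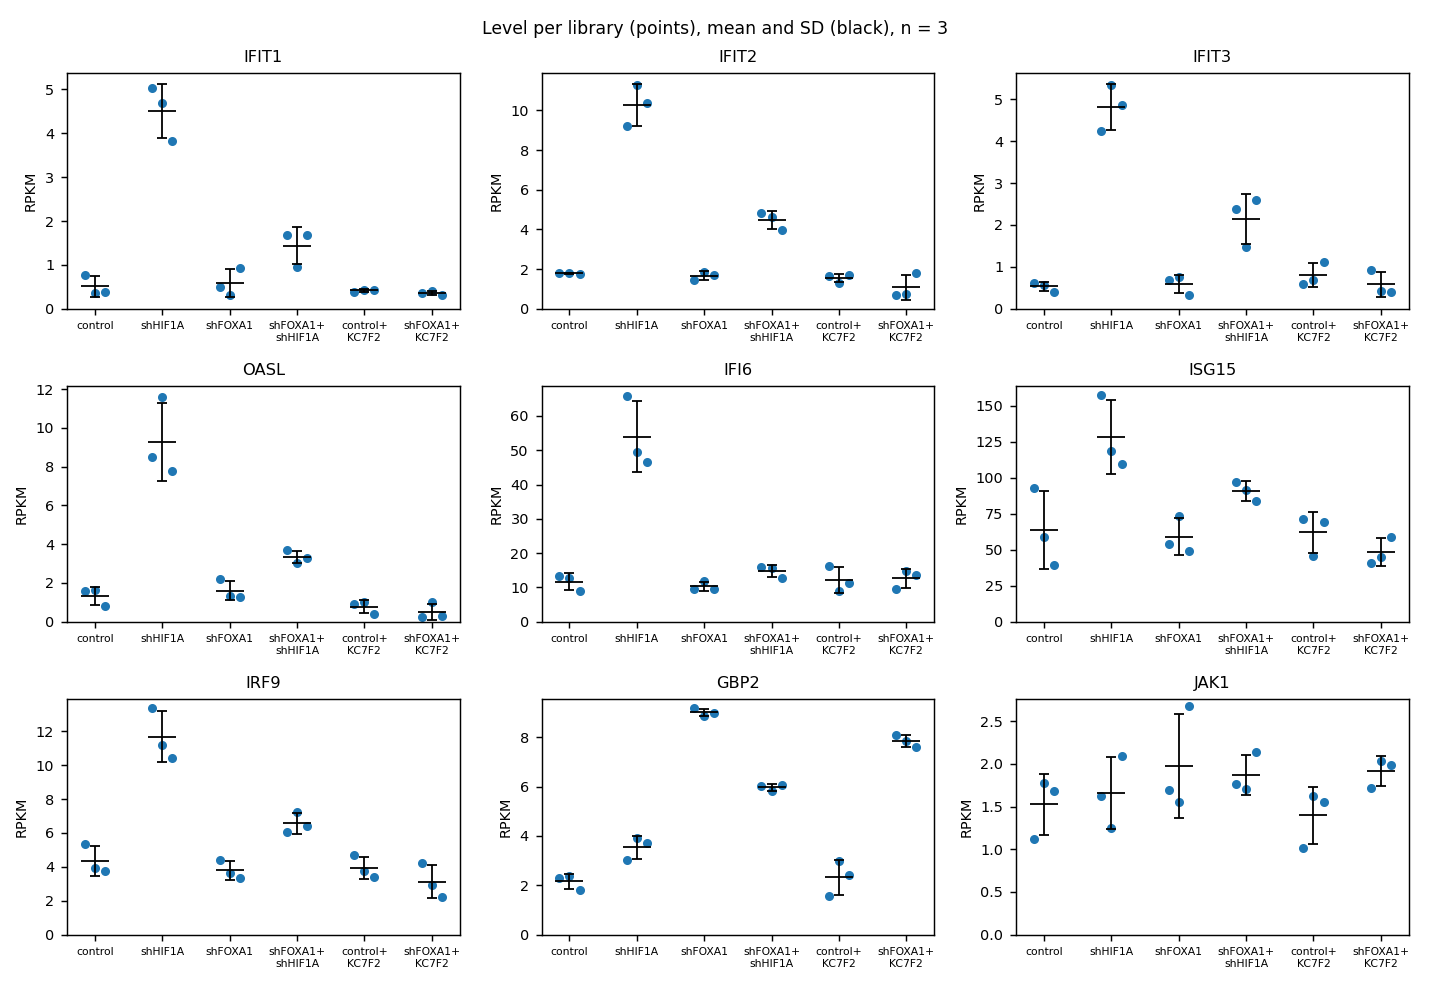
RPKM of 9 genes in each library (points) with the mean and SD of each group of 3 (black). IFIT1, IFIT2, IFIT3, OASL, IFI6 and IRF9 are highest in shHIF1A and lower in the doubly infected libraries, GBP2 is highest in shFOXA1, and the JAK1 groups overlap.

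The interaction of both shRNAs asks whether their joint change differs from the sum of the single changes. It was negative and past the threshold for 10 of the 41 genes (24.4%) and positive for 0, against 7.61% of all genes called, 4.45% as negative and 3.16% as positive. The median interaction was -0.48 over the 41 genes and 0.03 over all genes. For IFI6 the group means were 11.7 RPKM in control, 54.0 in shHIF1A, 10.3 in shFOXA1 and 14.8 with both, and the interaction was -1.66 ± 0.30 (adjusted p = 0.00232). For GBP2 they were 2.16, 3.54, 9.01 and 5.98 RPKM, and the interaction was -1.16 ± 0.21 (adjusted p = 0.00247). For IFIT1 they were 0.512, 4.51, 0.582 and 1.44 RPKM, and the interaction was -1.47 ± 0.33 (adjusted p = 0.011). IFI6 and IFIT1 were thus high with the HIF1A shRNA alone, GBP2 with the FOXA1 shRNA alone, and each fell short of the sum with both. IFIT1 was tested only because it was high in shHIF1A, so its interaction is no independent support. The other 7 genes were OAS1, TRIM22, OASL, IFIT2, IFI27, RSAD2 and LGALS3BP. Leaving out a single library brought the count to between 4 and 9: it was 4 without shHIF1A 2, 5 without control 1, shHIF1A 1 or shFOXA1 3, and 6 without shFOXA1 2. IFI6, GBP2 and IFIT1 kept their calls without any single library, while each of the other 7 lost its call without some of the 12: OAS1 without 4 of them (adjusted p 0.0526 to 0.0598), OASL without 5 (0.0513 to 0.0794), IFIT2 without 6 (0.0523 to 0.0767), TRIM22 without 6 (0.0519 to 0.0642), IFI27 without 7 (0.0556 to 0.0776), RSAD2 without 8 (0.0572 to 0.0863) and LGALS3BP without 11 (0.0552 to 0.125). FOXA1 mRNA was less depleted in the doubly infected libraries than in shFOXA1, mean depth was lower in both groups with the FOXA1 shRNA than in control and shHIF1A, and the part of either in the interaction was not tested.

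Cells with the FOXA1 shRNA and KC7F2 gave 2 rises and 5 falls against control, with 27.4% of all genes called, 10.1% as higher and 17.4% as lower. The groups did not overlap for 13 of 41 genes, against 38% of all. The calls over all genes were 1298 higher and 2241 lower as deposited and 1760 and 1817 with quantile normalisation, where the members gave 3 and 5. GBP2 measured 8.08, 7.85 and 7.59 RPKM and rose by 1.66 ± 0.15 (adjusted p = 5.08e-07), and UBA7 rose by 0.92 ± 0.19 (adjusted p = 0.00201). IRF1, a factor that drives basal and interferon-gamma-induced transcription, measured 3.03, 2.98 and 2.92 RPKM against 5.27, 4.81 and 4.72 RPKM in control, and fell by 0.64 ± 0.11 (adjusted p = 0.00026). IFITM3 fell by 0.71 ± 0.17 (adjusted p = 0.00421), IFITM2 by 0.92 ± 0.28, OASL by 0.90 ± 0.28 and IFIT2 by 0.60 ± 0.19 (adjusted p at most 0.0279). Without control 2 the count was 4. The calls of OASL (adjusted p 0.095 to 0.111 without control 1, control 2, or shFOXA1 plus KC7F2 1 or 3), IFIT2 (0.0614 to 0.139 without control 1, control 2, or shFOXA1 plus KC7F2 1 or 2) and IFITM2 (0.0639 without control 2, 0.0959 without shFOXA1 plus KC7F2 3) rested on single libraries. OASL and IFIT2 were also lost with no filter (adjusted p = 0.0559 and 0.0561) and with only these groups fitted (0.109 and 0.157).

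Adding KC7F2 to FOXA1 knockdown lowered 4 of the 41 genes and raised 0, against 4.08% of all genes called, 2.37% as lower and 1.71% as higher. No overlap between the groups was seen for 11 of 41 genes, against 25.6% of all. IRF1 fell by 0.84 ± 0.11, from 5.45, 5.85 and 5.88 RPKM in shFOXA1 to 3.03, 2.98 and 2.92 RPKM (adjusted p = 0.00016). TRIM22 fell by 1.28 ± 0.22, from 3.07, 4.56 and 4.82 RPKM to 1.20, 1.26 and 1.74 RPKM (adjusted p = 0.00274). The groups did not overlap for either gene. LGALS3BP fell by 0.59 ± 0.15 (adjusted p = 0.0327) and OASL by 1.11 ± 0.28 (adjusted p = 0.0382). LGALS3BP and OASL lost their calls without shFOXA1 1, 2 or 3 or shFOXA1 plus KC7F2 3, and OASL also without shFOXA1 plus KC7F2 1 (adjusted p 0.0514 to 0.165), and the count was 2 without any 1 of the shFOXA1 libraries.

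Within KC7F2-treated cells the FOXA1 shRNA raised 3 of the 41 genes and lowered 2, against 32.9% of all genes called, 8.88% as higher and 24.1% as lower. No overlap between the groups was seen for 13 of 41 genes, against 47.9% of all. All genes split into 1829 higher and 1883 lower calls with median-ratio scaling, against 1145 and 3105 as deposited, and the members into 4 and 1. GBP2 rose by 1.59 ± 0.15 (adjusted p = 8.2e-07), UBA7 by 0.76 ± 0.19 (adjusted p = 0.00683) and TRIM22 by 0.70 ± 0.22 (adjusted p = 0.0256). IRF1 fell by 0.60 ± 0.11 (adjusted p = 0.000472) and IFITM3 by 0.56 ± 0.17 (adjusted p = 0.0158). IFITM3 was lost without KC7F2 1 (adjusted p = 0.073) or shFOXA1 plus KC7F2 2 (0.0797), and TRIM22 without KC7F2 2, KC7F2 3 or shFOXA1 plus KC7F2 3 (0.0751 to 0.103). Without shFOXA1 plus KC7F2 2 the rise of UBA7 was 0.49. IFITM3 was also lost with median-ratio scaling (adjusted p = 0.0704) and quantile normalisation (0.174), and TRIM22 with no filter (0.0511) and with only these groups fitted (0.0595). The interaction of FOXA1 shRNA and KC7F2 gave 0 calls by limma and by voom among the 41 genes, with 3 at an unadjusted p below 0.05 and 0.0775% of all genes called, 0.0155% as higher and 0.062% as lower. IRF1 came closest, with -0.80 (adjusted p = 0.0542).

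**Figure D5:**
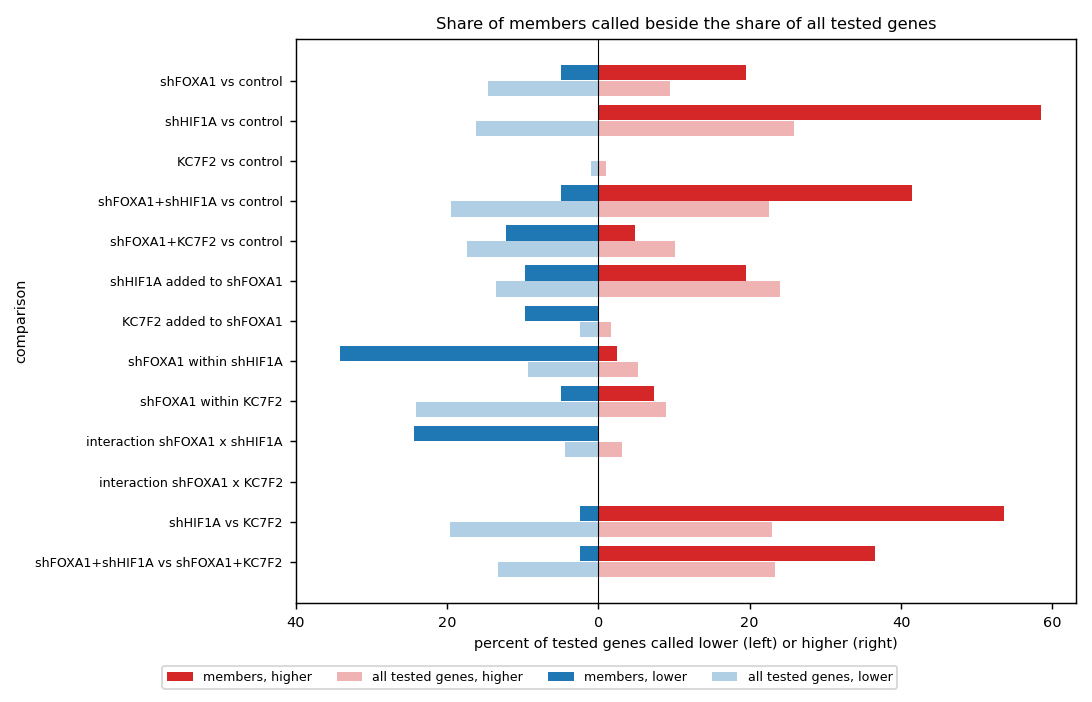
Percent of the 41 tested genes called higher (dark red, to the right) or lower (dark blue, to the left) in each comparison, beside the same for all 12900 tested genes (pale bars). The dark red bar is the longest in shHIF1A against control (58.5% against 25.9%), and the dark blue bar stands out where the FOXA1 shRNA was added to HIF1A knockdown (34.1% against 9.25%). Both comparisons use the same shHIF1A libraries, and the genes were chosen with earlier results of these data known.

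Across the 6 groups, the highest mean lay in shHIF1A for 26 of the 41 genes (63.4%), against 27.4% of all tested genes. IFIT1, DHX58 and BST2 are among these 26 but were tested only through their levels in shHIF1A, so their place is no independent support. The highest mean lay in shFOXA1 for 8 (19.5% against 10.6% of all genes), in the doubly infected group for 3 (7.32% against 16.9%), in shFOXA1 plus KC7F2 for 3 (7.32% against 9.1%), in KC7F2 for 1 (2.44% against 24.9%) and in control for 0 (against 11.1%). MX1, highest in shFOXA1, would not have been tested without its levels there. The 7 genes EIF2AK2, HERC5, IFI35, IFI44, IFIH1, JAK1 and OAS3 were called in none of the 13 comparisons.

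The other genes of the pathway were taken from lists of its ligands, receptors, adaptors, regulators and further targets. None of 10 interferon genes was tested. Together they had 26 reads in all 18 libraries, with 4 in control, 5 in shHIF1A and 9 in the doubly infected group, a highest level of 0.693 RPKM, and 5 of the 10 at 0 in every library. At these depths no change of interferon mRNA was detectable.

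The shares of all tested genes that rose and fell were 25.9% and 16.1% after HIF1A knockdown, with a median change of 0.07, and 9.52% and 14.6% after FOXA1 knockdown, with a median of -0.09. The counts of these small lists are set against those shares. Of 7 tested receptors and kinases, 4 rose and 1 fell after HIF1A knockdown, 71.4% called against 42% of all genes. IFNGR2, a chain of the interferon-gamma receptor, rose by 0.92 ± 0.10, from 8.66, 8.98 and 7.56 RPKM to 15.8, 16.2 and 16.8 RPKM (adjusted p = 3.6e-06). The kinase TYK2 rose by 0.51 ± 0.12 (adjusted p = 0.00348), while the type I receptor chain IFNAR1 fell by 0.49 ± 0.11 (adjusted p = 0.00243). After FOXA1 knockdown 1 rose and 2 fell (42.9% called against 24.1%), and the riser was IFNGR1, the ligand-binding chain of the gamma receptor. IFNGR1 measured 20.7 ± 2.06 RPKM in control and 74 ± 5.22 RPKM in shFOXA1 (SD, n = 3), a rise of 1.82 ± 0.12 (adjusted p = 8.82e-09).

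Among 10 tested sensing genes and adaptors, 3 rose after each single knockdown and 0 fell, a share of 30% that was near the 25.9% of all genes called higher after HIF1A knockdown and above the 9.52% after FOXA1 knockdown. After HIF1A knockdown they were the kinase IKBKE, by 1.51 ± 0.14 (adjusted p = 3.32e-07), the adaptor MYD88, by 1.10 ± 0.15 (adjusted p = 2.1e-05), and TANK, by 0.56 ± 0.16. After FOXA1 knockdown they were IKBKE, by 0.73 ± 0.14 (adjusted p = 0.000874), TMEM173, which encodes STING, by 1.00 ± 0.23, and the ligase TRIM25, by 0.40 ± 0.10.

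Of 6 tested negative regulators, 3 rose and 1 fell after HIF1A knockdown (66.7% called against 42% of all genes), and 2 rose after FOXA1 knockdown (33.3% against 24.1%). SOCS1, the feedback inhibitor of the JAK kinases, measured 1.09, 0.497 and 0.239 RPKM in control, 2.53, 1.58 and 2.59 RPKM in shHIF1A and 2.99, 1.89 and 2.38 RPKM in shFOXA1. It rose by 1.35 ± 0.34 and 1.45 ± 0.34 (adjusted p = 0.00448 and 0.00495). Of 32 tested further interferon-stimulated genes, 14 rose and 1 fell after HIF1A knockdown, 46.9% called against 42% of all genes, with a median of 0.44 against 0.07. After FOXA1 knockdown 8 rose and 4 fell, 37.5% called against 24.1%, with a median of 0.27 against -0.09. GBP3, another guanylate-binding GTPase, rose by 1.76 ± 0.14 and 1.54 ± 0.14 in these comparisons (adjusted p = 1.34e-07 and 6.91e-07). The apolipoprotein APOL1 rose by 1.79 ± 0.22 and the helicase ZNFX1 by 1.12 ± 0.14 after HIF1A knockdown (adjusted p at most 8.23e-06), and SLFN5 rose by 1.64 ± 0.14 after FOXA1 knockdown (adjusted p = 2.68e-07). The comparisons against control share the control libraries, and GBP1, GBP2 and GBP3 are close relatives whose reads may be shared.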

How the data were processed

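RNA-seq libraries of LNCaP cells were made in 6 groups of 3, prepared with an NEBNext Ultra kit per the labels' protocols. The authors deposited RPKM values per gene, and per the submitters' processing notes the aligner was STAR and the genome hg38. How reads were counted, on which annotation and whether by strand is not given in the sources used here, so reads of near-identical copies (IFITM, IFIT, OAS, GBP, USP18) and of overlapping neighbours (PARP9 with DTX3L, RSAD2 with CMPK2) are uncertain. Of 26475 deposited lines, 32 had no value.

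Values were tested as log2(RPKM + 0.5) for genes at 1 RPKM or more in at least 3 libraries, with limma 3.58.1 in R 4.3.3: 1 model of 6 group means, a moderated variance with trend, and Benjamini-Hochberg adjustment over 12900 genes at 0.05. Depth was inferred from short genes whose values matched whole reads within 2%. Whole reads were then recovered from the RPKM values for 12899 of the 12900 genes (99.99%) and used for read numbers and for voom. Voom and the contrasts of HIF1A shRNA against KC7F2 were added after the data had been seen. The fit was tested on simulated data. Read-based floors cover counting error only. Figures used Python 3.11.15 and matplotlib 3.10.9.

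The 50 genes and all lists were chosen with earlier results of these data known. All 50 were grouped by role, and up to 8 called genes per direction and comparison, in order of adjusted p, the most abundant gene of each role and up to 3 genes per pathway list were named; further genes were named after their values were seen. Alternatives were other pseudocounts, filters, scalings, a replicate block, fits of only the groups compared and leaving out libraries. Some genes of the marker and pathway lists are not reported here.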

Additional observations from a re-analysis of the deposited data

Results flagged for a closer look

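The change with both shRNAs differed from the sum of the changes with each shRNA, by the interaction term of limma with Benjamini-Hochberg adjustment, in 10 genes. All 10 interactions were negative on the log2(RPKM + 0.5) scale. They were -1.66 for IFI6 (adjusted p = 0.00232), -1.16 for GBP2 (0.00247), -1.47 for IFIT1 (0.011), -1.45 for OAS1 (0.0204) and -1.25 for TRIM22 (0.0226). For OASL the value was -1.54 (0.0268), for IFIT2 -1.03 (0.0284), for IFI27 -1.68 (0.0292), for RSAD2 -1.13 (0.032) and for LGALS3BP -0.71 (0.0486). Apart from IFI6, GBP2 and IFIT1, each lost its call without 4 to 11 of the 12 libraries, left out singly, LGALS3BP most often. IFIT1 was tested only through its levels in shHIF1A. In RSAD2, OAS1, TRIM22, GBP2 and LGALS3BP each single shRNA raised the gene, while IFI6, IFIT1, IFIT2, OASL and IFI27 were called as higher with the HIF1A shRNA and had no call with the FOXA1 shRNA.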

How the results depend on the processing

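For the 145 single-gene changes that passed the test, 2250 values were computed under other settings: 1973 kept their direction and side of the threshold, 277 kept their direction but lost the call, and 0 changed direction. Changes that had not passed are outside this tally. Among their values 29 gained a call, 7 with median-ratio scaling, 9 with quantile normalisation and 13 with voom. The same change can count under more than 1 of these settings, as that of MX1 after HIF1A knockdown does. Gains under the other settings are not listed here. A filter of 5 RPKM tested fewer genes and called 2 after FOXA1 knockdown, 12 after HIF1A knockdown, 10 with both shRNAs against control, 7 for HIF1A shRNA added to FOXA1 knockdown, 2 for KC7F2 added to it, 9 for FOXA1 shRNA within HIF1A knockdown, 3 within KC7F2, 5 for the interaction of both shRNAs, and 10 and 8 for HIF1A shRNA against KC7F2 without and with FOXA1 shRNA. Fits of only the groups compared gave 5 after FOXA1 knockdown and 2 for KC7F2 added to it, and no filter gave 2 for the latter. Without control 1 and KC7F2 1 and 3 the counts were 5 for the interaction of both shRNAs, 3 for FOXA1 shRNA within KC7F2 and 15 for HIF1A shRNA against KC7F2. A pseudocount of 0.1 gave 6 for the interaction of both shRNAs. A pseudocount of 1 and quantile normalisation each gave 1 for that of FOXA1 shRNA and KC7F2. The cause of these shifts was not tested, apart from the fewer genes under the stricter filter. Leaving out each library gave 6 to 9 calls after FOXA1 knockdown, 22 to 23 after HIF1A knockdown, 0 with KC7F2, 16 to 18 with both shRNAs, 4 to 7 with FOXA1 shRNA and KC7F2, 8 to 12 for HIF1A shRNA added to FOXA1 knockdown (8 without shFOXA1 3), 2 to 4 for KC7F2 added to it, 12 to 15 and 4 to 7 for FOXA1 shRNA within HIF1A knockdown and within KC7F2, 4 to 9 and 0 to 1 for the interactions with HIF1A shRNA and KC7F2, and 20 to 25 and 11 to 16 for HIF1A shRNA against KC7F2. With the replicate number as a block the counts were 10, 25, 0, 22, 8, 11, 4, 15, 6, 11, 0, 24 and 16 in the same order. Deviations of same-numbered libraries had a median correlation of -0.01 (45 pairs, -0.21 to 0.25, with 9 over 0.1). Of 18 libraries 7 were closest to their own number. These values alone cannot settle whether the numbers pair the samples. Median-ratio scaling shifted the median of all genes by 0.15 for FOXA1 shRNA within KC7F2 and by -0.11 for HIF1A shRNA added to FOXA1 knockdown and for HIF1A shRNA against KC7F2 with FOXA1 shRNA. Genes near 1 RPKM rested on few reads, and their changes are understated.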
